A study of Mus musculus with 2 samples.

Results

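Shank, Homer and Dlgap proteins form the inner scaffold of the excitatory postsynaptic density, and their mRNAs are described here in mouse brain homogenate and in a fraction enriched for synaptosomes, which are sealed nerve terminals torn off with the postsynaptic membrane they contact. The members were the 10 genes named Shank1 to Shank3, Homer1 to Homer3 and Dlgap1 to Dlgap4, found by symbol among 23329 genes, with 22 of the 30383 deposited transcripts. All 10 genes, and 19 of the 22 transcripts, averaged 1 CPM or more (CPM being counts scaled to a common library total) over both libraries. The comparison held 1 library from total homogenate and 1 from the layer between 3% and 10% Percoll. Both came from wild-type C57BL/6 mice with the tissue given as whole brain, and neither had a treatment in its labels. Sample titles carry the tags WT1 and CT10, which the labels do not spell out. The labels give neither the animals' age nor whether brains were pooled. By its title, the series set out to find mRNAs enriched at synapses.

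In the postsynaptic density, the membrane-associated guanylate kinase PSD-95 (Dlg4) holds glutamate receptors at the membrane. Dlgap proteins (also called SAPAP or GKAP) bind its guanylate kinase domain and, through their C-terminal end, the PDZ domain of Shank proteins. Shank proteins assemble into sheets beneath this layer and bind Homer, which in turn binds group I metabotropic glutamate receptors and the IP3 receptor. Long Homer forms join into tetramers through a coiled coil. The short Homer1 form, which lacks the coiled coil and is induced by neuronal activity, binds the same partners without joining them. Shank1 and Dlgap3 mRNAs are known to be carried into dendrites.

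For 7 of these genes the files hold more than 1 transcript, differing in the start, a spliced segment or the end. The sequences at those places are shown for 6 of them, all but Homer3, because the results on forms turn on them. All are coding sequence, written 5′ to 3′ as in the mRNA, from GENCODE transcripts on GRCm38, the assembly that UCSC calls mm10, the build named by the submitters. In the first set, capitals mark the last coding bases that the form does not share with the others shown for its gene, and lower case the first 21 coding bases that they share. The capitals lie at chr7:144259111-144259140 and chr7:144285025-144285054 for Shank2, at chr17:70516967-70516996, chr17:70522233-70522262 and chr17:70561842-70561871 for Dlgap1, at chr2:156711232-156711261 and chr2:156722073-156722102 for Dlgap4, and at chr8:14179667-14179681 and chr8:14096124-14096141 for Dlgap2, all on the plus strand.
Shank2 upstream start (NM_001113373): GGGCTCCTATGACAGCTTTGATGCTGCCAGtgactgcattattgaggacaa
Shank2 internal start (NM_001081370): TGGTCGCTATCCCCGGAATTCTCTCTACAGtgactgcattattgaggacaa
Dlgap1 upstream start (NM_177639): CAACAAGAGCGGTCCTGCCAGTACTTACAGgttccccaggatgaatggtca
Dlgap1 middle start (NM_001128180): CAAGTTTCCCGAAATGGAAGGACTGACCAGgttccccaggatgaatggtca
Dlgap1 downstream start (NM_001128181): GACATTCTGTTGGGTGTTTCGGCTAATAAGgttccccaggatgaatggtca
Dlgap4 upstream start (NM_146128): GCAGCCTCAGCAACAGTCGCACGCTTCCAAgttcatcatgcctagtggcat
Dlgap4 downstream start (NM_001042487): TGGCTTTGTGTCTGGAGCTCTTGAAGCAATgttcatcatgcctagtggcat
Dlgap2 with the extra exon (NM_172910): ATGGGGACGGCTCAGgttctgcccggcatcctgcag
Dlgap2 without it (NM_001145965): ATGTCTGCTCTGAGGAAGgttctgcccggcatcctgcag
Within each gene these forms entered the shared sequence in the same reading frame. In the Homer1 pair, lower case marks the end of the shared exon. Capitals mark the 34 bases that follow, which in the short form (chr13:93356080-93356113, plus strand) end in its stop codon and in the long form (chr13:93386345-93386378) come from a separate 36-base exon.
Homer1 short (NM_011982): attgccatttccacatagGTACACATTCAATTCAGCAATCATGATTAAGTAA
Homer1 long (NM_147176): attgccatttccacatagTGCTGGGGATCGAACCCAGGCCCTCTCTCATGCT
In the Homer2 pair, capitals mark a 33-base coding segment (chr7:81618683-81618715, minus strand) that only the first of the 2 forms has.
Homer2 with the segment (NM_011983): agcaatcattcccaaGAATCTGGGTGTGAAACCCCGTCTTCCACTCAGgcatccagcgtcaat
Homer2 without it (NM_001164086): agcaatcattcccaagcatccagcgtcaat

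**Figure D1:**
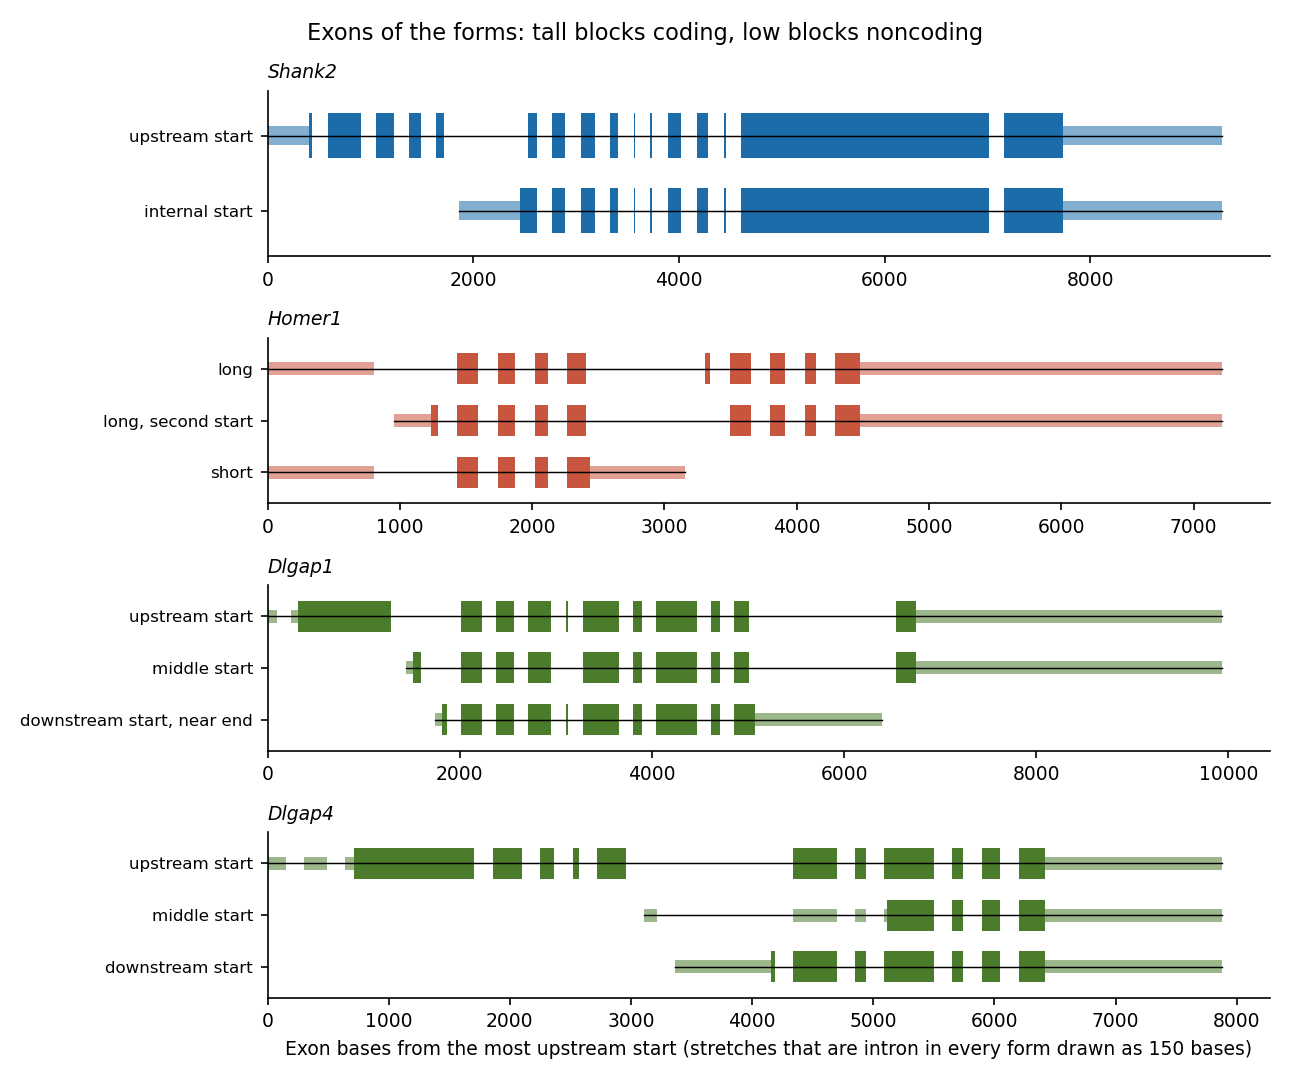
Exon maps of the Shank2, Homer1, Dlgap1 and Dlgap4 forms that had counts, with exon bases from the most upstream start on the x axis and introns shortened. Tall blocks are coding and low blocks noncoding; the upstream-start forms of Shank2, Dlgap1 and Dlgap4 hold coding exons that the internal-start forms lack, and the short Homer1 form ends before the last exons of the long ones.

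Expected counts, which are reads as estimated per transcript and can be fractional, summed to 15210857 in the homogenate library and to 13709539 in the synaptosome library. Ratios are synaptosome over homogenate after TMM scaling, which sets the typical gene near 0 on the log2 scale (median of 14153 genes that passed the filter -0.01). With library totals in its place every log2 ratio is lower by 0.49. Intervals are exact 95% counting intervals. Each fraction had a single library, so the spread between animals is unknown and no p-value is given. Where 2 values of a gene or form are given together, the homogenate comes first. To be counted, a gene or transcript had to differ by 2-fold or more with an interval of its log2 ratio that excluded 0. Of the genes that passed the filter, 12.8% met this as higher and 9.10% as lower, or 4.49% and 25.6% under library totals. Nuclear RNAs and endothelial markers were mostly lower in the synaptosome fraction, with 6 of 7 and 8 of 10 counted as lower.

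Among the 10 scaffold genes, the synaptosome library held 5 at 2-fold or more above the homogenate and 0 at 2-fold or more below it. Their median log2 ratio was 1.09, or 0.60 under library totals. These counts, and those of the marker lists below, stand beside 12.8% higher and 9.10% lower over all genes (4.49% and 25.6% under library totals). All Shank genes were among the 5, with Dlgap3 and Homer2. Homer1 was the single member with a log2 ratio below 0 under TMM, joined by Dlgap1 and Dlgap2 under library totals and also by Dlgap4 in TPM. Between the highest and the lowest member, Shank3 and Homer1, the ratios differed 6.21-fold (95% counting interval 5.56 to 6.93), a comparison of counts in which the library scaling cancels. Ranked by ratio, the members were Shank3, Dlgap3, Shank1, Shank2, Homer2, Homer3, Dlgap4, Dlgap1, Dlgap2 and Homer1. Among the 9 neighbouring pairs in that order, 4 did not differ beyond counting error, namely Shank3 and Dlgap3, Shank2 and Homer2, Homer3 and Dlgap4, and Dlgap1 and Dlgap2. The same libraries held more astrocyte mRNA in the synaptosome fraction. Of 12 astrocyte markers, 11 were counted as higher (8 under library totals), with a median log2 ratio of 2.15. Their summed level went from 5679 to 19086 TPM (a level per transcript length, with the same sum in every library). Neuronal markers had a median of -0.88, with 1 of 8 higher and 3 lower (0 and 5 under library totals) and summed levels of 7829 and 4997 TPM. Markers of hippocampal and cortical projection neurons had 2 of 8 higher and 1 lower (2 and 4 under library totals). Their median was -0.49 and their summed levels were 4432 and 5331 TPM, of which Camk2a made 1183 and 2896. Oligodendrocyte markers had 2 of 10 higher and 0 lower (2 and 2 under library totals), a median of 0.18 and summed levels of 9738 and 21877 TPM. Microglia markers had 4 of 10 higher and 0 lower (median 0.89, 592 and 856 TPM), and those of oligodendrocyte precursors 2 of 6 and 0 (median 0.96, 285 and 361 TPM). Under library totals these were 2 and 0 for microglia and 1 and 1 for the precursors. None of these markers was at 0 in either library, and their part in the scaffold ratios was not tested. In bulk RNA of a fraction, the amount of material from a cell type and the RNA held by that material cannot be told apart.

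**Figure D2:**
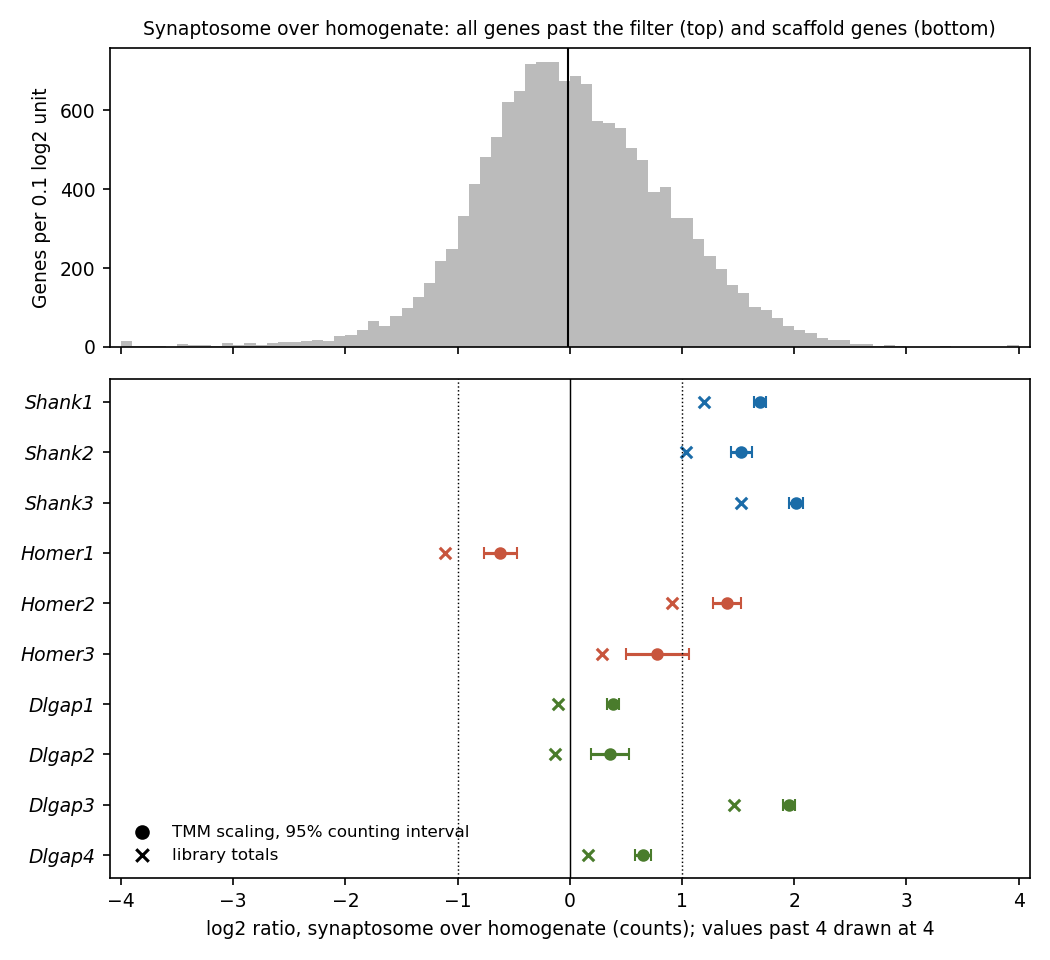
Top, log2 ratios of the 14153 genes that passed the filter in bins of 0.1, with their median as a line and values past 4 drawn at 4; bottom, log2 ratio of each scaffold gene with its 95% counting interval (points, TMM scaling) and under library totals (crosses), with dotted lines at 2-fold. Shank1, Shank2, Shank3, Homer2 and Dlgap3 lie right of the upper dotted line under TMM, and Homer1 lies left of 0 under both scalings.

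Shank genes encode the large scaffold that joins the Dlgap layer to Homer and to the actin cytoskeleton, and each was more abundant in the synaptosome fraction under every scaling tried. Shank3 (chr15:89499857-89560260) went from 2949 to 7635 counts, a 4.04-fold higher scaled level (3.87 to 4.22), and 98.8% of these genes had a lower ratio. Shank1 (chr7:44310264-44358353) had 3830 and 7934 counts and was 3.23-fold higher (3.11 to 3.36), with 97.2% of these genes lower in ratio. Shank2 (chr7:144175520-144422675) had 1462 and 2704 counts and was 2.89-fold higher (2.71 to 3.08). Per length, Shank1 led the family in the homogenate at 79.8 TPM, with Shank3 at 65.5 and Shank2 at 38.7. In the synaptosome fraction Shank3 and Shank1 lay close together at 182 and 178 TPM, and Shank2 followed at 76.1. Their part of the summed TPM of the 10 genes went from 24.3% to 36.0%. Shank1 and Shank3 each had 1 deposited transcript, so nothing can be said here of their forms. GENCODE carries Shank1 2219 bases and the Shank2 forms about as far, 1807 and 1819 bases, past the deposited 3′ end, and the TPM use the deposited lengths.

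Shank2 had a pair of forms with starts 108.9 kb apart and the same 3′ end. The upstream-start form encodes 1472 codons, of which 238 lie in no other deposited form, and the internal-start form encodes 1262, of which 28 are its own. The first went from 300 to 957 counts and was 4.98-fold higher (4.37 to 5.69). The internal-start form had 1162 and 1747 counts and was 2.35-fold higher (2.18 to 2.53). Under library totals the internal-start form, at a log2 ratio of 0.74, no longer passed 2-fold. The internal-start form was the larger part of Shank2 in each library, but the upstream-start form's share went from 20.5% of the gene's counts (exact binomial interval 18.5 to 22.7) to 35.4% (33.6 to 37.2). Its ratio was 2.12 times that of the other form (1.82 to 2.47), and 2.04 times with the posterior estimates of the counts, a second set of estimates that the authors deposited beside the first.

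Homer genes encode the adaptors that tie Shank to metabotropic receptors and calcium stores, and they were divided. Homer1 (chr13:93304495-93404962) went from 1297 to 541 counts and was 1.54-fold lower (1.39 to 1.70). Its log2 ratio was -0.62 under TMM and -1.11 under library totals, where it passed 2-fold. Homer2 (chr7:81600481-81706925, minus strand) went the other way, with 855 and 1447 counts and a 2.64-fold higher level (2.43 to 2.88). Under library totals its log2 ratio was 0.91, short of 2-fold. Homer3 (chr8:70282999-70294361), a family member known from Purkinje cells, had 199 and 219 counts and a ratio of 1.72 (1.41 to 2.09). The Purkinje marker Pcp2 had 0 counts in both libraries, as had the cerebellar granule cell marker Gabra6, although the tissue is labelled whole brain. Also below the filter were the Purkinje gene Ppp1r17 (10 and 1 counts) and the granule cell genes Cbln3 (6 and 6) and Fat2 (8 and 8). Of 7 listed granule cell genes, 4 passed the filter, with 0 higher and 0 lower (0 and 1 under library totals). Their median was -0.21, and the list's summed levels were 58.8 and 34.2 TPM. The whole Purkinje list had 3 higher and 2 lower of 6 measured genes (1 and 2 under library totals) and a median of 0.89. Its summed levels were 2394 and 845 TPM, of which Pcp4 made 2152 and 630. For both cerebellar lists, the shares over all genes were 12.8% higher and 9.10% lower (4.49% and 25.6% under library totals). The part of the Purkinje list in the Homer3 ratio was not tested.

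The balance within the Homer family differed between the libraries. Homer1 went from 65.1% to 37.0% of the family's summed TPM. The share of Homer2 moved from 16.8% to 37.0% and that of Homer3 from 18.1% to 26.0%. In TPM, Homer1 was at 47.7 in the homogenate, well above Homer3 at 13.2 and Homer2 at 12.3. In the synaptosome fraction Homer1 and Homer2 were both at 22.3 TPM, with Homer3 at 15.7. The family sum had a ratio of 1.47 under TMM (1.38 to 1.55), a log2 ratio of 0.06 under library totals, and went down from 73.2 to 60.3 in TPM, so its direction depended on the scaling. Summed Shank TPM was 2.51 times summed Homer TPM before and 7.23 times after enrichment.

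**Figure D3:**
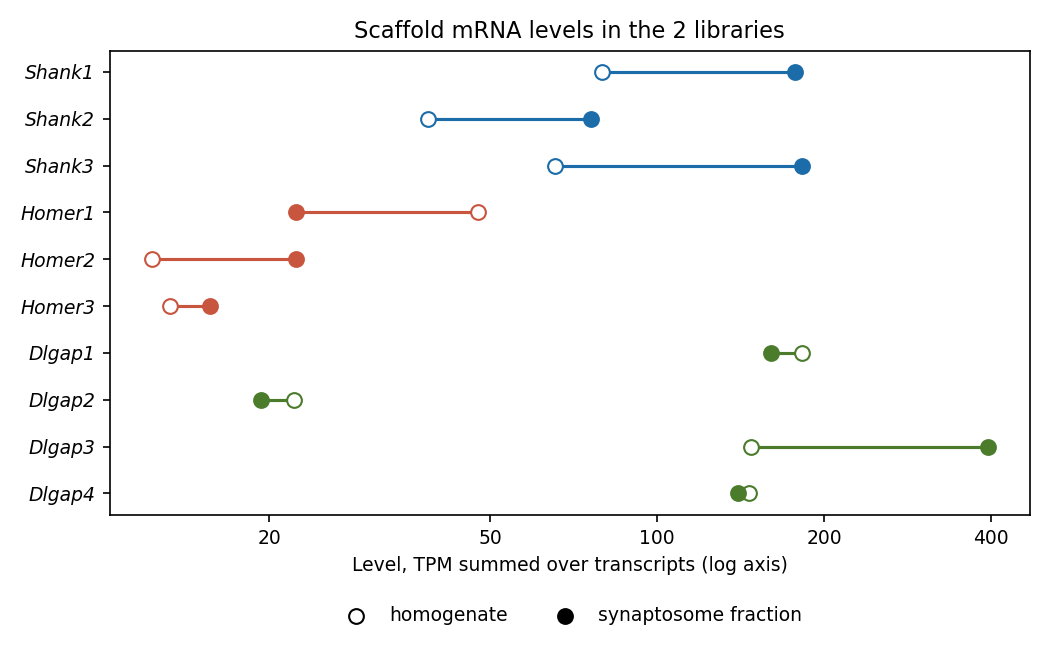
Level of each scaffold gene as TPM summed over its transcripts (log axis) in the homogenate (open circles) and the synaptosome fraction (filled circles), 1 library each. Dlgap3 goes from 148 to 395 TPM, the largest absolute difference in TPM among the members, while Homer1 goes from 47.7 to 22.3.

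Most Homer1 counts came from the long form in each library. That form (366 codons) had 1175 and 492 counts, a ratio of 0.654 (0.587 to 0.727). The short, activity-induced form (186 codons) had 63 and 49 counts, with a ratio of 1.21 and an interval of 0.819 to 1.79, so no difference was detectable at this depth. The long form's ratio was 0.538 times that of the short form (0.359 to 0.811), or 0.530 times with the posterior estimates. As a share of the gene's counts the short form went from 4.86% (3.76 to 6.18) to 9.06% (6.78 to 11.8), and as a share of its TPM from 10.4% to 18.5%. GENCODE carries the last exon of the short form 3632 bases further than the deposited annotation, and reads there were not part of these counts. A long form that lacks the 36-base exon and has another first exon, 3.54 kb downstream (NM_152134), had 58 counts against 0. Set at a floor of 3 counts per library it was 12.4-fold lower, and its exact interval reached down to 9.75-fold. The posterior estimates were 72 and 18 counts, 2.56-fold lower. Neuronal activity induces the class of immediate early genes. Of 13 listed, 3 (Egr1, Fos and Btg2) were lower by 2-fold or more and 1 (Arc) was higher, where 9.10% and 12.8% of all genes were. The median was -0.87. Under library totals 10 were lower and 0 higher, where 25.6% and 4.49% of all genes were, and the median was -1.36. Egr3 and Fosb, the next highest after Arc, had log2 ratios of 0.20 and -0.31.

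Homer2 forms that differ by the 33-base segment shown above had unlike ratios. The form with the segment (354 codons) went from 216 to 817 counts and was 5.91-fold higher (5.08 to 6.89). The form without it (343 codons) had 639 and 630 counts, a ratio of 1.54 (1.38 to 1.72). The ratio of the first was 3.84 times that of the second (3.17 to 4.64). The segment form's share of the gene went from 25.3% (22.4 to 28.3) to 56.5% (53.9 to 59.0). Posterior estimates narrowed the contrast to 2.63 times (2.15 to 3.22), and they gave another form, with a start 14.0 kb downstream, 149 and 196 counts where the expected counts gave 0 in both libraries. The segment is 33 bases of a 10999-base transcript. Homer3 counts all went to the form with 9 more coding bases, while the posterior estimates gave the other form 14 counts in each library.

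Dlgap genes encode the link between PSD-95 and Shank, and 1 of the 4 stood far above the others. Dlgap3 (chr4:127169271-127237022), abundant in the striatum, went from 3527 to 8757 counts and was 3.88-fold higher (3.73 to 4.03). It was the most abundant of the 10 genes per length in the synaptosome fraction, at 395 TPM. Dlgap4 (chr2:156613705-156764363) had 3311 and 3336 counts and a ratio of 1.57, with a log2 ratio of 0.65 under TMM (0.58 to 0.72), 0.16 under library totals and -0.06 in TPM. Dlgap1 (chr17:70424792-70821413) had 6037 and 5056 counts and a ratio of 1.31 (1.26 to 1.36). Dlgap2 (chr8:14095875-14847686), the least abundant, had 617 and 507 counts and a ratio of 1.28 (1.14 to 1.45). For Dlgap1 and Dlgap2 the log2 ratios of 0.39 and 0.36 became -0.11 and -0.13 under library totals and -0.18 and -0.20 in TPM. Neither had a direction that held under every scaling. Of the genes that passed the filter, 67.8% had a lower ratio than Dlgap1 and 66.7% than Dlgap2. Dlgap1 was the most abundant of the 10 genes in the homogenate, at 183 TPM, and came after Dlgap3, Shank3 and Shank1 in the synaptosome fraction, at 161. Within the family Dlgap3 went from 29.7% to 55.2% of the summed TPM and Dlgap1 from 36.6% to 22.5%. Striatal projection neuron markers counted 1 higher and 0 lower among 9, where 12.8% and 9.10% of all genes were. Under library totals they counted 0 and 1 (4.49% and 25.6% of all genes), and their median was 0.20 under TMM. Their summed levels were 1426 and 1470 TPM, and none was at 0. Their part in the Dlgap3 ratio was not tested.

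The gene-level ratio of Dlgap4 joined forms that lay apart. Its upstream-start form (992 codons) went from 1411 to 2340 counts and was 2.59-fold higher (2.42 to 2.77), with a log2 ratio of 0.88 under library totals, short of 2-fold. The middle-start form (NM_001042488, 285 codons), whose first exon is noncoding and whose coding part lies wholly within exons of the long form, had 1364 and 815 counts, a ratio of 0.933 (0.854 to 1.02). The downstream-start form (453 codons) had 536 and 181 counts and was 1.90-fold lower (1.60 to 2.26), past 2-fold under library totals at a log2 ratio of -1.42. The starts of the shorter forms lie 107.3 and 107.6 kb downstream of the first. In the homogenate the upstream-start form held 42.6% of the gene's counts (40.9 to 44.3) and in the synaptosome fraction 70.1% (68.6 to 71.7). Its ratio was 2.78 times that of the middle-start form (2.49 to 3.10) and 4.91 times that of the downstream-start form (4.09 to 5.92), and the middle-start form's was 1.77 times that of the downstream-start form (1.46 to 2.15). With the posterior estimates the first 2 were 2.76 and 4.91 times.

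**Figure D4:**
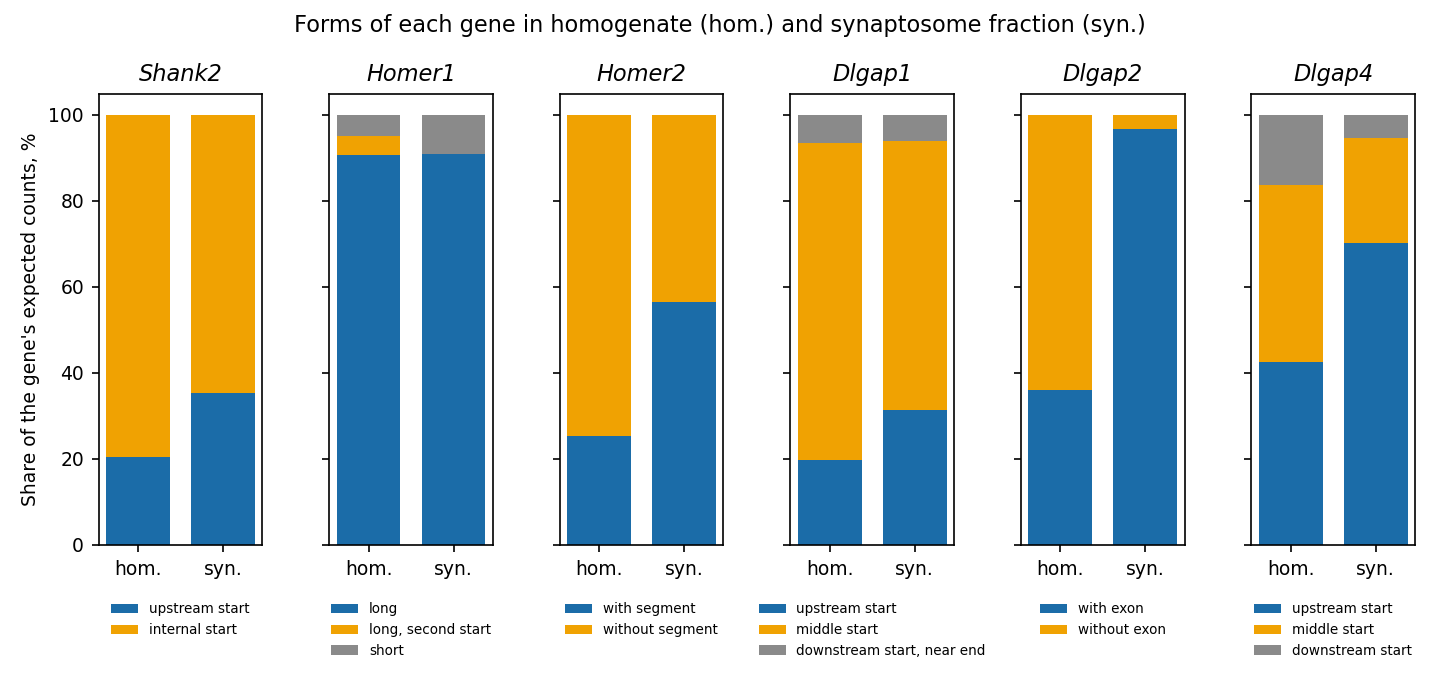
Share of each gene's expected counts given to each of its forms, in percent, in the homogenate (hom.) and the synaptosome fraction (syn.), for the 6 genes with counts in more than 1 form. Upstream-start forms, in blue, take 35.4% against 20.5% of Shank2, 31.3% against 19.7% of Dlgap1 and 70.1% against 42.6% of Dlgap4 in the synaptosome fraction against the homogenate.

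In Dlgap1, too, the upstream-start form had the highest ratio. Its upstream-start form (992 codons) had 1192 and 1582 counts and was 2.07-fold higher (1.92 to 2.24), with a log2 ratio of 0.56 under library totals. The middle-start form (682 codons), which begins 97.3 kb downstream, lacks a 30-base coding exon and has the same 3′ end, had 4449 and 3173 counts and a ratio of 1.11 (1.06 to 1.17). It remained the main form, at 73.7% and 62.8% of the gene's counts, while the upstream-start form went from 19.7% (18.8 to 20.8) to 31.3% (30.0 to 32.6). The ratio of the first was 1.86 times that of the second (1.70 to 2.03), and 1.85 times with the posterior estimates. Another form, with a start 137.0 kb downstream and a nearer 3′ end, had 396 and 301 counts and a ratio of 1.19 (1.02 to 1.38). Between it and the middle-start form, which differ in their 3′ end, first exon and the 30-base exon, the ratios did not differ beyond counting error (0.938 times, with 1 inside the interval). The other deposited form (NM_027712) had 0 counts in both libraries.

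In Shank2, Dlgap1 and Dlgap4 the upstream-start form thus had a higher ratio than internal-start forms with the same 3′ end. Over all 443 genes with such a pair, where starts lay at least 1000 bases apart and each form had counts in both libraries, the upstream form had the higher ratio in 62.3%, with a median log2 difference of 0.32. A difference of at least 2-fold in favour of the upstream form, with the interval excluding 0, was found in 29.3% of these genes, and in favour of the downstream form in 15.3%. Of the 3 scaffold genes, Shank2 (log2 difference 1.09) and Dlgap4 (2.30 against the downstream-start form) passed 2-fold, and Dlgap1 (0.90) did not. The direction in the scaffold genes was thus also the more common one among all genes.

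Dlgap2 had the widest contrast between forms, and the one that the posterior estimates moved most. Its forms share their first exon and differ by a 99-base exon that moves the start codon, so that the proteins differ in their first 5 or 6 codons. The form with the exon went from 223 to 490 counts, a 3.43-fold higher level (2.92 to 4.04). The form without it had 394 and 17 counts, 14.8-fold lower (9.15 to 25.7). From 36.1% of the gene's counts (32.3 to 40.1) the form with the exon went to 96.6% (94.7 to 98.0). The posterior estimates for the form without the exon were 375 and 113 counts, 2.13-fold lower. The ratio between the forms was 50.9 by expected counts (30.3 to 90.2) and 5.40 by posterior estimates (4.11 to 7.11), the same direction at a smaller size.

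**Figure D5:**
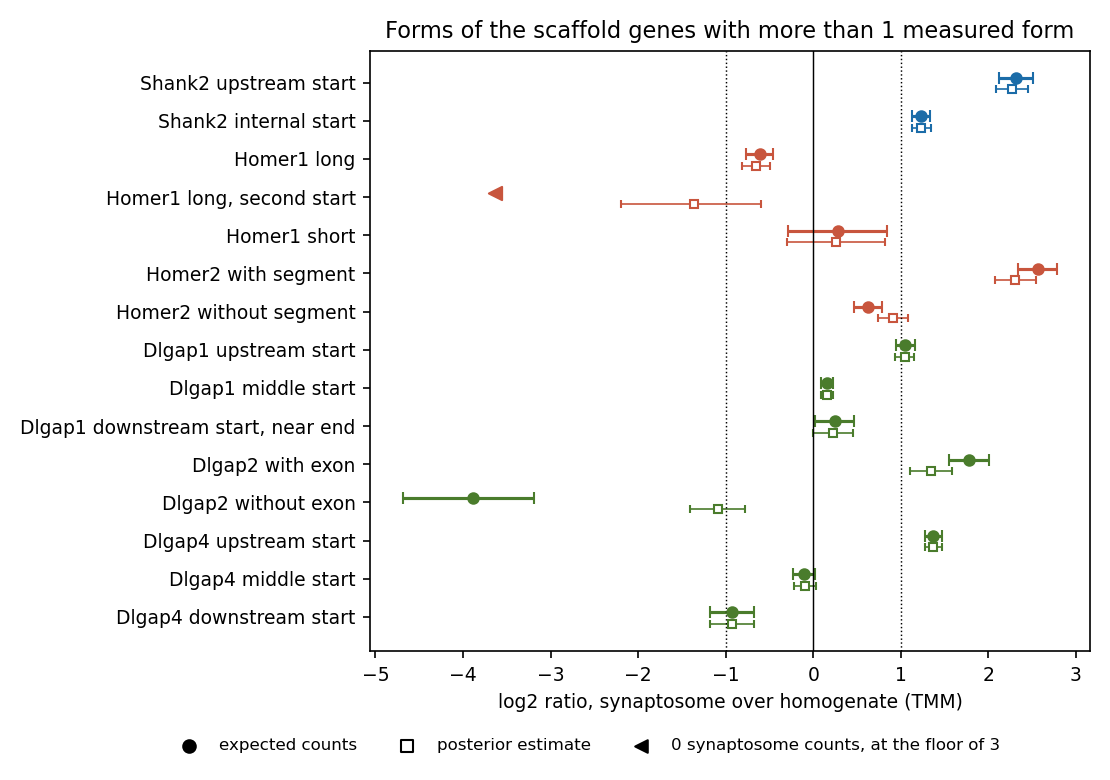
Log2 ratio, synaptosome over homogenate, of each form of the genes with more than 1 measured form, by expected counts (filled) and by the deposited posterior estimates (open), with 95% counting intervals and dotted lines at 2-fold. The estimates lie close together for Shank2, Dlgap1 and Dlgap4 and apart for Dlgap2 without the exon and for the Homer1 form with the second start.

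By transcript, 9 of the 19 measured forms were counted as higher and 2 as lower, where 16.2% and 13.5% of 17613 measured transcripts were. Under library totals 6 were higher and 4 lower, against 7.83% and 28.0% of all transcripts, and the forms added as lower were the long Homer1 form and the downstream-start form of Dlgap4. Lower under TMM were Dlgap2 without the exon and the Homer1 form with the second start. The posterior estimates moved the Dlgap2 form from 14.8-fold to 2.13-fold lower and the Homer1 form from 12.4-fold to 2.56-fold lower. Forms can pass the filter through the library where they are high, so these counts are a description only. Forms of genes with 1 transcript repeat the gene's value.

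Genes of proteins that bind these scaffolds had a lower median ratio than the scaffold genes. Of 33 listed binding partners, 30 had rows, and the others were not analysed here. Of the 30, 8 passed 2-fold upward and 0 downward, against 12.8% and 9.10% of all genes, and the median was 0.49. Under library totals these were 1 (Camk2a), 4 (Baiap2, Dynll1, Dlg3 and Sharpin) and -0.00, where 4.49% of all genes passed upward and 25.6% downward. Highest were Camk2a, a kinase of the postsynaptic density, at 3.61-fold, Agap2, a GTPase-activating protein that binds Homer, at a log2 ratio of 1.32, and Lphn1, a latrophilin that binds Shank, at 2.39-fold (2.33 to 2.45). The lowest ratios were those of Baiap2, an actin regulator that binds Shank, at 0.545, Dynll1, a dynein light chain that binds Dlgap, at 0.567, and Dlg3, a relative of PSD-95, at 0.609. Dynll2, the other dynein light chain and second to Camk2a among the partners in homogenate TPM, had a ratio of 1.40 (1.36 to 1.45). Nearest in log2 ratio to Homer1 (-0.62) were Sharpin at -0.59, which binds Shank, and Dlg3 at -0.72.

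Ionotropic glutamate receptor genes, whose proteins these scaffolds anchor, counted 4 of 9 members as higher and 0 as lower (2 and 0 under library totals), and their median was 0.89. For each list in this paragraph, the shares over all genes were 12.8% higher and 9.10% lower, or 4.49% and 25.6% under library totals. Grin1 and Grin2b, NMDA receptor subunits, were nearest to Shank3 (2.02) in log2 ratio, at 1.95 and 1.86. Grin2a had 219 and 363 counts and was 2.59-fold higher (2.18 to 3.08). Gria4, an AMPA receptor subunit, had the lowest ratio, at 1.11, with Gria3 at 1.73, Grin2d at 1.77 and the abundant Gria1 at 1.84. The scaffold of inhibitory synapses and the receptors it holds had 0 of 7 members past 2-fold in either direction and a median of 0.68, with 1 lower (Gphn) under library totals. Nlgn2, an adhesion protein of these synapses, had a ratio of 1.65, while Gphn, their scaffold protein gephyrin, and Gabrb2, a GABA receptor subunit, had ratios of 0.683 and 1.05. Messages known from dendrites, a list of 12 without the members, counted 6 as higher, led by Kif5a, Camk2a and Ddn, and their median was 1.05. Under library totals 4 were higher and 2 lower, and the second was Nrgn. The 1 that was lower, Rgs5 at 2.72-fold (2.08 to 3.61), is also a marker of pericytes, and Nrgn had a log2 ratio of -0.53.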

How the data were processed

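Per RefSeq transcript, the tables deposited by the authors hold expected counts, posterior estimates of the counts, TPM and FPKM, and a further table holds a signal by gene. FastQC, TopHat 1.3.3, RSEM 1.2.5, edgeR 3.0.6 and mm10 are named in the submitters' processing notes, without their roles. Per the labels' protocols, the mRNA kit kept the strand and reads were 100 bases long, in pairs or single. TPM as deposited keeps no depth. FPKM as deposited gave the same order of levels. The deposited signal served as an alternative. Gene sums of the expected counts were rounded here and scaled by TMM (edgeR 4.0.16 under R 4.3.3; homogenate factor 1.19, synaptosome factor 0.843). Genes and transcripts averaging 1 CPM or more were compared by size, without a p-value. Ratios have exact 95% Clopper-Pearson intervals, and ratios between forms or genes conditional exact ones (scipy 1.17.1). For the 443 start pairs a normal interval on the log scale was used. Intervals and floors cover counting error and leave out how surely reads were assigned to forms, and reads are not independent molecules. Only forms in the deposited annotation have counts. All 22 transcripts were paired with GENCODE vM21 transcripts, 21 with the same introns. The members, the gene lists and the pairs of forms were chosen with earlier results of these data known. Named from the lists were the 3 highest and 3 lowest ratios, the 2 highest TPM, and the 2 partners or receptors nearest in ratio to Shank3 and Homer1, of which some are not reported here. The calculations were tested on simulated counts. Alternatives were library totals, median-of-ratios factors, TPM, the deposited signal, TMM on genes averaging 10 CPM or more, TMM on transcripts, a 1.5-fold rule and, added after the data were seen, the posterior estimates.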

Additional observations from a re-analysis of the deposited data

How the results depend on the processing

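The number of scaffold genes at least 2-fold higher was 5 with TMM, median-of-ratios factors, the deposited signal, TMM on genes averaging 10 CPM or more and the posterior estimates, 4 with library totals (Homer2 dropped out), 3 with TPM (Shank2, at a log2 ratio of 0.98, also dropped out) and 7 with a 1.5-fold rule. The number at least 2-fold lower was 0 with TMM and 1 with library totals, with TPM and with the 1.5-fold rule, in each case Homer1. With library totals 4.49% of all genes were counted as higher and 25.6% as lower. For the other alternatives no share over all genes is given. The median log2 ratio of 1.09 became 0.60 with library totals and 0.55 with TPM, and lay between 1.02 and 1.12 under the other alternatives. No ratio of a gene or form that passed 2-fold changed sign. With library totals, an alternative added for the lists and forms after the data were seen, the numbers higher and lower became 1 and 4 for binding partners, 2 and 0 for glutamate receptors, 0 and 1 for the inhibitory scaffold, 0 and 10 for immediate early genes, 4 and 2 for dendritic messages and 6 and 4 for the scaffold forms. Posterior estimates moved 2 of the 10 ratios between forms past their counting interval, those of Homer2 and Dlgap2. The cause was not tested. No paired analysis was possible because each fraction had 1 library and the fractions share a single replicate number, and no replicate could be left out for the same reason. Depth limits the forms with few counts, such as the short Homer1 form and the one with the second start.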
